A study of Mus musculus with 6 samples.

Results

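Voltage-gated and TRP ion channel genes were examined in the lungs of mice with an activated human SRY transgene. The members were all probes of the array whose gene symbol begins with Kcn (potassium channels), Cacn (voltage-gated calcium channels), Scn followed by a digit (voltage-gated sodium channels), Clcn (CLC chloride channels and exchangers) or Trpc, Trpm or Trpv followed by a digit (TRP channels), except Scn7a. This rule uses names and no measured value. It selected 226 of the 25697 probes, for 145 of the 18138 gene symbols. The symbols were those of the array design, and 2 genes that carry such a name, Kcnrg and Trpc4ap, do not encode a channel subunit.

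Lung RNA of male mice of the strain labelled FVB was taken at postnatal day 6 and hybridised to Illumina MouseRef-8 BeadChips, 1 array for each mouse. There were 3 mice labelled hSRY-OFF and 3 labelled hSRY-ON. According to the study's methods, the transgene holds a loxP-flanked red fluorescent protein gene between the broadly active CAG promoter and FLAG-tagged human SRY with EGFP. In hSRY-ON mice the flanked gene had been removed by Cre recombinase carried over from the egg of a Ddx4-Cre mother, so that SRY was driven by the CAG promoter in the whole animal, and mice that inherited Ddx4-Cre themselves were not used. The methods give the name hSRY-OFF to mice with the transgene not recombined, whereas the control littermates of the study lacked it, so that the genotype of the hSRY-OFF mice rests on their label. The transgenic line carried a single inserted copy. The study describes the hSRY-ON pups as smaller than controls by this age and its arrays as biological triplicates, and a difference between the groups therefore includes the state of the pup.

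Whole lung was measured, and the tissue label was examined with 8 alveolar and airway genes. All 8 of them, among them the surfactant genes Sftpc and Sftpb, the club cell gene Scgb1a1 and the type I cell gene Ager, were detected on every array. Between 13191 and 14134 probes were detected per array at a detection p under 0.05. The median SD between the arrays of a group over the tested channel probes was 0.19 on the log2 scale in hSRY-OFF and 0.31 in hSRY-ON.

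Voltage-gated channels are membrane proteins that open a pore for potassium, calcium or sodium when the voltage across the membrane changes, and they are best known from nerve and muscle. Each consists of a pore-forming alpha subunit and accessory subunits that set its gating and its number at the surface. Inward rectifier and tandem-pore potassium channels hold the resting voltage, and in the lung potassium channels of epithelium and vessels bear on fluid secretion and vascular tone. TRP channels are cation channels opened by lipids, stretch, temperature or emptying of calcium stores. CLC proteins move chloride across the surface membrane or, as exchangers, across the membranes of endosomes and lysosomes.

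Most channel probes lay at background in the lung. A probe was tested if its detection p was under 0.05 on at least 3 of the 6 arrays, and 75 of the 226 channel probes (33.2%), for 59 of the 145 genes, passed, where 53.9% of all probes did. Of the remaining probes, 123 were detected on no array and 28 on 1 or 2 arrays. For 65 genes no probe was detected on any array. They include Kcna5 and Kcnma1, which encode potassium channels of vascular smooth muscle, the L-type calcium channel gene Cacna1c with its 4 probes, and Trpm7. An undetected probe gives no level, since a poorly hybridising probe cannot be told apart from an absent transcript. In the bar chart of detection and test result, the voltage-gated potassium alpha subunits had the most probes (49, of which 12 were tested). Of the 16 TRPM probes, 2 were tested, both of them for Trpm6.

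**Figure D1:**
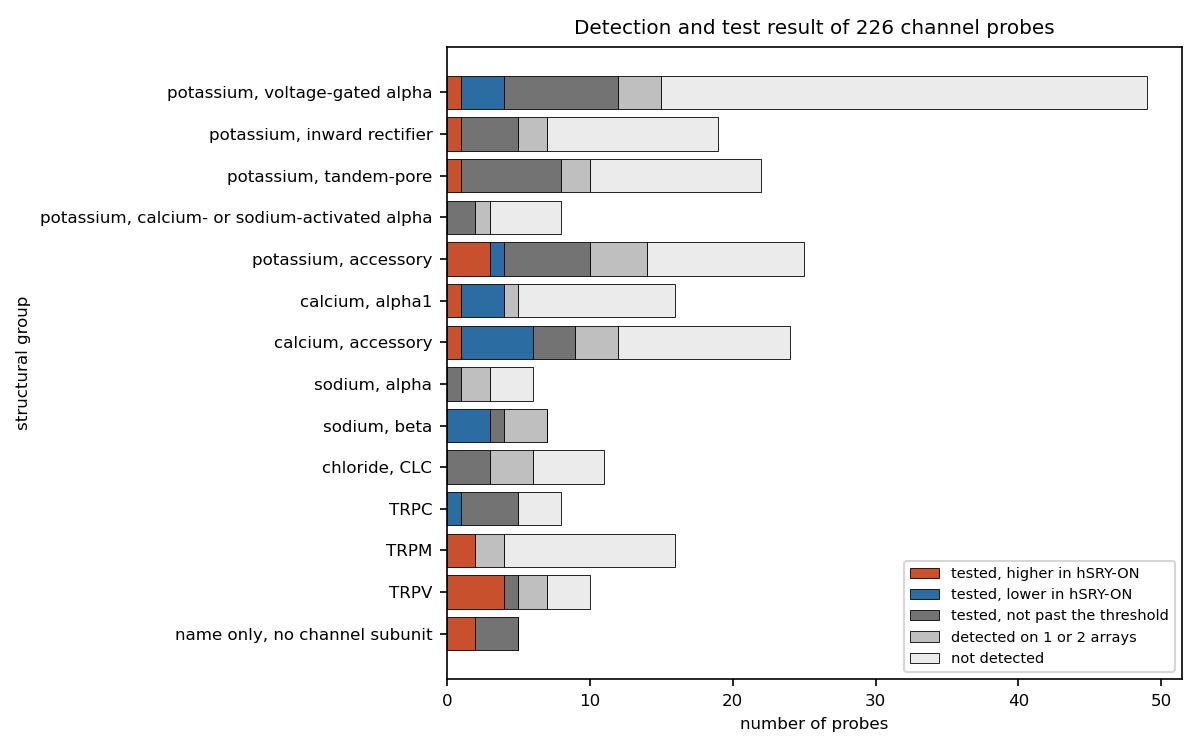
Number of channel probes (horizontal axis) in each structural group (vertical axis), stacked by detection (on no array, on 1 or 2 arrays, or tested), with the tested probes split by result. Undetected probes make up most of the bars for potassium alpha subunits, calcium alpha1 subunits and TRPM channels, while all 7 sodium channel beta subunit probes were detected on at least 1 array.

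Channel transcripts moved in both directions in hSRY-ON lungs. The sodium channel beta subunit gene Scn3b, the calcium channel genes Cacna1d, Cacnb2 and Cacnb3 and the potassium channel subunit gene Kcne1l were lower, whereas the potassium channel genes Kcnk1 and Kcnj15, the TRP channel genes Trpm6, Trpv2 and Trpv6 and the channel regulator gene Kcnrg were higher. The call of Trpv2 was less stable and held in 10 of 16 alternative fits. Of the 75 tested probes, 32 (42.7%) passed an adjusted p of 0.05 (limma, two-sided, Benjamini-Hochberg adjustment over the 13841 probes tested on the array), against 26.9% of all tested probes. Among the 32, 16 were higher (all tested probes, 13.6%) and 16 lower (all tested probes, 13.3%) in hSRY-ON. They covered 12 genes with higher and 10 with lower expression, and no gene had probes in both directions. Several of these genes, among them Kcnj15, Cacna1g, Cacnb4, Kcnh1, Trpc1 and Trpv4, also had probes that were not tested. The median fitted change of the 75 probes was 0.07 on the log2 scale, where that of all tested probes was -0.03.

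How far the channels' share lay above that of all probes depended on the processing, so nothing is drawn from it about channels as a class. Without the detection filter, 31 of 226 channel probes (13.7%) and 13.1% of all probes passed. Without background correction, 29.3% of the channel probes and 29.5% of all probes passed. A probe that entered the test only through the group in which it is high was selected toward a difference. Among probes detected on all 6 arrays, where this does not apply, 21 of 46 channel probes (45.7%) and 29.3% of all probes passed. The values of the groups did not overlap for 38 of the 75 probes (50.7%), against 46.6% of all tested probes. Leaving out an array changed the number of channel probes that passed, from 18 without hSRY-OFF replicate 2 and 19 without hSRY-OFF replicate 1 to 35 without hSRY-ON replicate 1. No probe of the 32 changed direction in any alternative, and 17 of them passed whichever array was left out. For 3 against 3 arrays the smallest two-sided p of an exact permutation test is 0.1, so that each call leans on the variance limma borrows from other probes. The p-values measure the spread between these mice, whose litters the labels do not give. An adjusted p under 0.01 was reached by 16 channel probes (21.3%) and by 9.58% of all tested probes.

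**Figure D2:**
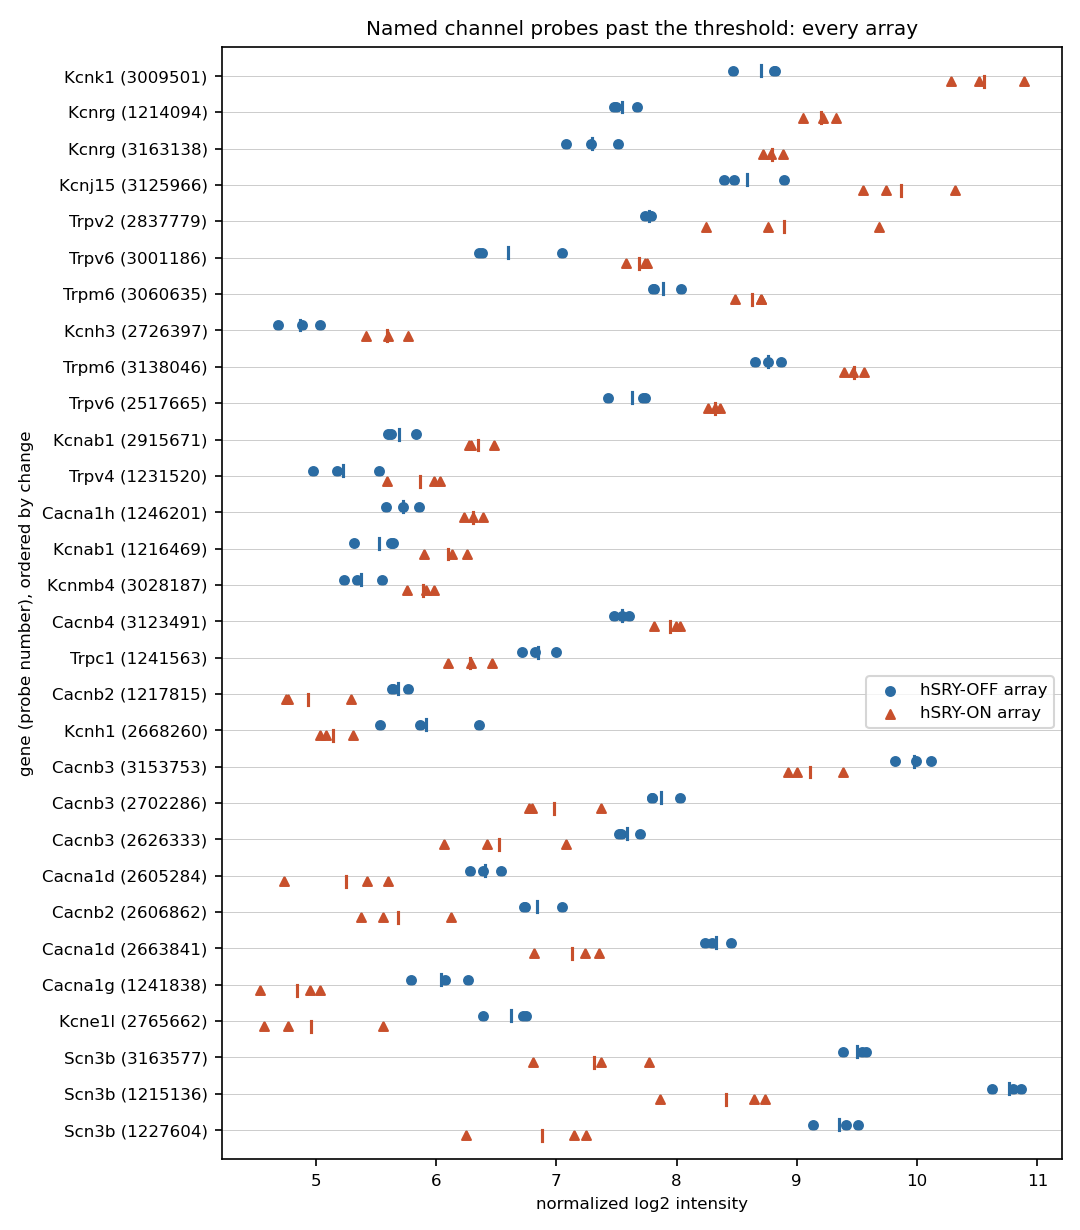
Normalized log2 intensity (horizontal axis) of 30 of the 32 channel probes that passed the threshold, ordered by change, with a circle for each hSRY-OFF array, a triangle for each hSRY-ON array and a vertical tick for the group mean. The groups are apart for every probe shown, by most for Scn3b at the bottom and Kcnk1 at the top.

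Promoters were examined for the core motif of SRY and the related SOX factors, AACAAT, read on both strands as AACAAT or ATTGTT, in the 250 bases before each start site that RefSeq lists (GRCm38.p6). It was present in 9.42% of 32851 such windows of all genes, or in 10.9% of 27025 genes. Of the 22 channel genes that passed, 16 had an entry in the table, and 4 of these held the motif in at least 1 window. They were Kcnk1 and Trpm6, which were higher, and Cacna1d and Cacnb2, which were lower. Among all channel genes with an entry it was present in 9 of 111. The 4 windows are printed 5′ to 3′ on the strand of the gene with the motif in capitals, because they belong to genes whose changes held on at least 1 probe in every alternative that tested them. The window of Kcnj15, which rose without a match, is given for comparison.
Kcnk1, chr8:125994852-125995101, plus strand: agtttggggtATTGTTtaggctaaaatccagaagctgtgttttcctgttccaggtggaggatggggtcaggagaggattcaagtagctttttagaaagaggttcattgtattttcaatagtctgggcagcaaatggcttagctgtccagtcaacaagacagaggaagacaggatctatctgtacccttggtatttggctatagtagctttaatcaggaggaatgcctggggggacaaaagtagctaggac
Trpm6, chr19:18749480-18749729, plus strand: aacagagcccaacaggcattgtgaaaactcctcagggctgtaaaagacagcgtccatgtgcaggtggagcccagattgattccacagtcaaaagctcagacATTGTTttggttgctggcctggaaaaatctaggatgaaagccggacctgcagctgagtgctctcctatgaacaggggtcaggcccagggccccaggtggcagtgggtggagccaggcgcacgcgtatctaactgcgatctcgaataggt
Cacna1d, chr14:30491157-30491406, minus strand: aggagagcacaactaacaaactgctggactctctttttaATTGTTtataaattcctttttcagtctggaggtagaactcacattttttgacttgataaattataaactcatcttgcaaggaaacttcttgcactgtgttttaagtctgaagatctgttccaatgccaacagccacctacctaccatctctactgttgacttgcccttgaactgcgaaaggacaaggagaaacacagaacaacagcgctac
Cacnb2, chr2:14823842-14824091, plus strand: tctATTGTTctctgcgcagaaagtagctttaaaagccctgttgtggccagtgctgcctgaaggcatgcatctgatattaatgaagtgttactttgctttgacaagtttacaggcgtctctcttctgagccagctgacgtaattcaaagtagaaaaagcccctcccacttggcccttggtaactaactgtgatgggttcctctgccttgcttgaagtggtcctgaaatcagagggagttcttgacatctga
Kcnj15, chr16:95257308-95257557, plus strand: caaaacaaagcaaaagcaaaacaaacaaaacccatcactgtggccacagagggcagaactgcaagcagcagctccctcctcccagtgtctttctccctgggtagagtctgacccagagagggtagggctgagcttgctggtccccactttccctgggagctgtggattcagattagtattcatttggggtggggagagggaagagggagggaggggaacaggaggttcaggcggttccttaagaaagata
The motif began 240 bases before the start site in Kcnk1, 149 bases before it in Trpm6, 211 in Cacna1d and 247 in Cacnb2. Cacna1d and Cacnb2 each have a second listed start site, whose window held no match. A match is a description of the letters in the window and is not evidence of binding.

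The largest change of any channel gene was the fall of Scn3b, which encodes the beta3 accessory subunit of voltage-gated sodium channels, a single-pass membrane protein that modulates gating. Its probe ILMN_1215136 read 10.80, 10.86 and 10.62 in hSRY-OFF replicates 1 to 3 and 8.64, 7.86 and 8.74 in hSRY-ON replicates 1 to 3, as normalized log2 intensities. All hSRY-ON arrays lay well below the lowest hSRY-OFF array, and hSRY-ON replicate 2 was the lowest. The means were 10.76 ± 0.13 and 8.41 ± 0.48 (SD, n = 3), a log2 change of -2.35 ± 0.24 (standard error; limma, adjusted p = 0.00157), or 5.09-fold lower. The probes ILMN_1227604 and ILMN_3163577 of the same gene changed by -2.47 (adjusted p = 0.00194) and -2.18 (adjusted p = 0.00189). The 3 probes thus fell together, and their calls held under all alternatives. The fourth Scn3b probe was detected on 1 array and was not tested. The transcript is measured in whole lung, where fewer cells of a type and less RNA per cell cannot be told apart.

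The other sodium channel genes gave little signal. Of the 6 alpha subunit genes examined, Scn8a was the only one tested, at 0.51 ± 0.24 (standard error; limma, adjusted p = 0.163). Scn1a, Scn4a and Scn11a were not detected on any array, and Scn10a was detected on 2 hSRY-OFF arrays. No alpha subunit probe was detected on more than 3 of the 6 arrays.

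Voltage-gated calcium channel genes moved in both directions. Of 9 tested genes, 4 were lower, 2 were higher and 3 did not pass. Of the 13 tested probes of alpha1 and accessory subunits, 8 were lower, for Cacna1d, Cacna1g, Cacnb2 and Cacnb3, and 2 were higher, for Cacna1h and Cacnb4. The remaining 3, for Cacna2d1, Cacna2d3 and Cacnb1, did not pass. Of all tested probes, 13.3% were lower and 13.6% higher. Cacnb3 alone gave 3 of the 8 lower probes. Cacna1g, a dimmer Cacnb2 probe and Cacna2d3 entered the test only through the hSRY-OFF arrays.

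Cacna1d encodes the pore of an L-type channel that opens at relatively negative voltages. Its probe ILMN_2663841 read 8.30, 8.45 and 8.24 in hSRY-OFF and 6.81, 7.24 and 7.35 in hSRY-ON. Every hSRY-ON value was lower than every hSRY-OFF value. The change was -1.19 ± 0.17 (standard error; limma, adjusted p = 0.00408), 2.29-fold lower. The second probe, ILMN_2605284, changed by -1.15 (adjusted p = 0.0126), was detected on 2 hSRY-ON arrays, and no longer passed without hSRY-OFF replicate 1 (adjusted p = 0.0536). In the RefSeq table the gene overlaps Dcp1a, whose 2 tested probes changed by -0.35 (adjusted p = 0.105) and -0.46 (adjusted p = 0.0296), and Chdh, which was not tested. Cacna1g and Cacna1h encode T-type channels, which open near the resting voltage, and they went opposite ways. Cacna1g (ILMN_1241838) was detected on each hSRY-OFF array, at 5.79, 6.08 and 6.27, and on no hSRY-ON array, and was at least 1.56-fold lower (limma, adjusted p = 0.00555, for a probe that was tested because hSRY-OFF detected it). Such a bound sets the mean where the probe was detected over the lowest signal that counted as detected on each of the other arrays. It holds only for the background-corrected values and has no test of its own. The adjusted p given beside a bound belongs to the fitted change. Cacna1h (ILMN_1246201) read 5.86, 5.59 and 5.72 in hSRY-OFF and 6.23, 6.39 and 6.31 in hSRY-ON, a rise of 0.59 ± 0.12 (standard error; limma, adjusted p = 0.0146). It no longer passed without hSRY-OFF replicate 2 (adjusted p = 0.0692) or 3 (adjusted p = 0.0529). Both genes gave dim signals, and without background correction their changes were -0.34 for Cacna1g and 0.17 for Cacna1h. The other Cacna1g probes, ILMN_1251322 and ILMN_1256998, were detected on no array.

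The cytoplasmic beta subunits bring calcium channel pores to the surface membrane. Cacnb3 was covered by 3 tested probes, and all fell. The brightest, ILMN_3153753, read 9.99, 10.11 and 9.82 in hSRY-OFF and 9.01, 8.93 and 9.38 in hSRY-ON, with hSRY-ON replicate 3 nearest to the hSRY-OFF arrays. Its change was -0.87 ± 0.16 (standard error; limma, adjusted p = 0.00985), and the others changed by -0.89 (ILMN_2702286, adjusted p = 0.0150) and -1.06 (ILMN_2626333, adjusted p = 0.0216). The call of ILMN_3153753 held whichever array was left out. That of ILMN_2626333 was lost without hSRY-OFF replicate 1, 2 or 3 (adjusted p = 0.0677, 0.0792 and 0.0592), and that of ILMN_2702286 without hSRY-OFF replicate 1 or 2 (adjusted p = 0.0509 and 0.0643). Cacnb2, the main beta subunit gene of heart muscle, read 7.05, 6.73 and 6.74 in hSRY-OFF and 5.37, 5.56 and 6.12 in hSRY-ON on ILMN_2606862. The groups were apart, the change was -1.15 ± 0.21 (standard error; limma, adjusted p = 0.00974), and the call held whichever array was left out. On its dimmer probe ILMN_1217815, detected on no hSRY-ON array, the bound was 1.21-fold lower (limma on the fitted change, adjusted p = 0.0204). Without background correction the change on this probe was -0.20 and did not pass (limma, adjusted p = 0.086). This second call was lost without hSRY-OFF replicate 1, 2 or 3 (adjusted p = 0.0832, 0.0679 and 0.0587) and without hSRY-ON replicate 2 (adjusted p = 0.0606). Cacnb4 moved the other way, from 7.48, 7.55 and 7.6 to 7.81, 8.0 and 8.03 (ILMN_3123491). Its rise of 0.40 ± 0.12 (standard error) was just past the threshold (limma, adjusted p = 0.0438) and was lost in 8 of the 16 alternatives that tested it. Among them were the fits without hSRY-OFF replicate 1, 2 or 3 (adjusted p = 0.155, 0.131 and 0.0945) and without hSRY-ON replicate 2 or 3 (adjusted p = 0.102 and 0.0848).

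The extracellular alpha2delta subunit gene Cacna2d1 changed by 0.27 (adjusted p = 0.275) and Cacna2d3 by -0.51 (adjusted p = 0.0816), and neither passed (limma). Cacna2d3 was detected on no hSRY-ON array, and its bound was 1.08-fold lower. Markers of muscle moved beside the calcium channel genes. Shares of all tested probes to set beside each marker list, which counts genes and not probes, are 13.6% higher and 13.3% lower. Of 8 smooth muscle markers listed for this purpose, 6 were tested and 5 were lower (Acta2, Myh11, Des, Myocd and Actg2), none was higher, and Cnn1 was not detected. The summed normalized intensity of the brightest tested probe of each ranged from 33221 to 35805 in hSRY-OFF and from 16662 to 24611 in hSRY-ON. Of 12 cardiac muscle markers, 9 were tested, 3 were lower (Myl4, Sln and Myl2) and 2 higher (Nppa and Myl3). Their sum ranged from 8576 to 11694 in hSRY-OFF and from 6321 to 11982 in hSRY-ON, while Ryr2 and Pln were not detected. The part of these cells in the changes of the channel genes was not tested.

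**Figure D3:**
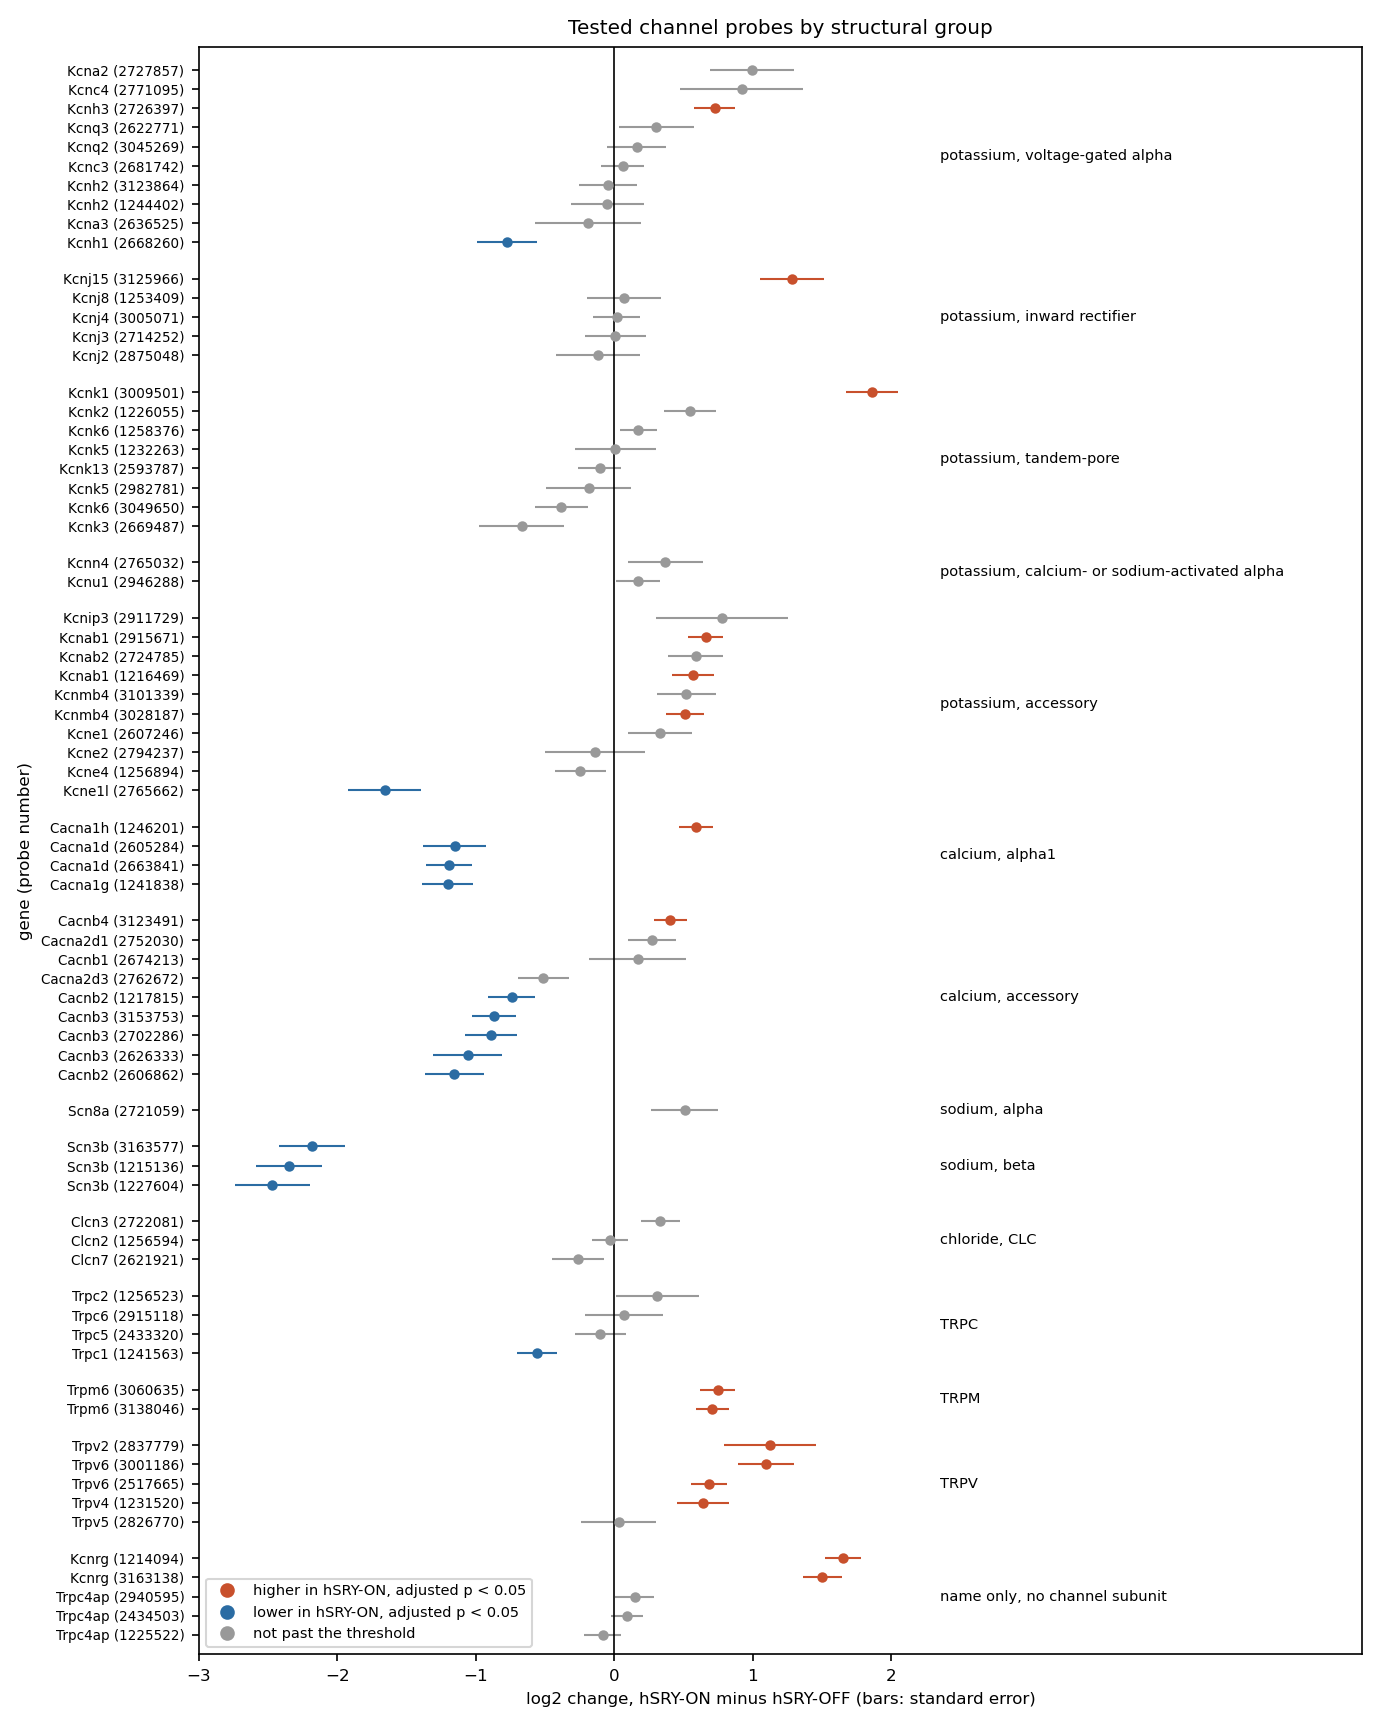
Fitted log2 change, hSRY-ON minus hSRY-OFF (horizontal axis), of 71 of the 75 tested channel probes, grouped by channel structure, with bars for the standard error. Probes that passed the threshold are red where higher and blue where lower. The calcium channel and sodium beta subunit probes that passed lie mostly to the left of 0, all TRPM and TRPV probes lie to the right, and the CLC probes lie near 0.

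Potassium channel genes formed the largest group, with 37 tested probes for channel subunits. Of these, 6 were higher and 4 lower, against 26.9% of all tested probes in either direction. The tandem-pore channel gene Kcnk1 had the largest rise of any channel gene. Kcnj15, an inward rectifier gene, was also more than 2-fold higher. Kcne1l was lower, by a size that depended on the background correction.

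Kcnk1 encodes a weakly inward-rectifying background potassium channel found in many epithelia. Its probe ILMN_3009501 read 8.81, 8.47 and 8.82 in hSRY-OFF and 10.51, 10.89 and 10.28 in hSRY-ON. The lowest hSRY-ON array was far above the highest hSRY-OFF array. The means were 8.70 ± 0.20 and 10.56 ± 0.31 (SD, n = 3), a log2 change of 1.86 ± 0.19 (standard error; limma, adjusted p = 0.00154), or 3.64-fold higher. The call held in all 16 alternatives, with changes between 1.55 and 1.99. The other tandem-pore genes did not pass. Kcnk3, an acid-sensitive background channel gene of pulmonary artery smooth muscle, read 8.58, 8.94 and 8.77 in hSRY-OFF and 7.47, 8.06 and 8.76 in hSRY-ON. Its hSRY-ON replicate 3 lay among the hSRY-OFF arrays. The change was -0.67 ± 0.31 (standard error; limma, adjusted p = 0.149), and without hSRY-ON replicate 3 it was -1.0 and passed (adjusted p = 0.0193). Kcnk2, which encodes a stretch-sensitive channel, was at 0.55 (adjusted p = 0.0708). Kcnk5, Kcnk6 and Kcnk13 were between -0.38 and 0.17.

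Kcnj15 read 8.48, 8.40 and 8.89 in hSRY-OFF and 9.74, 10.32 and 9.55 in hSRY-ON (ILMN_3125966). The groups did not overlap. Its rise was 1.28 ± 0.23 (standard error; limma, adjusted p = 0.00904), 2.43-fold, and it held in all 16 alternatives. Kcnj15 was the only one of the 5 tested inward rectifier genes that passed. Its probes ILMN_2725844 and ILMN_2725845 were detected on no array. Kcnj8, the pore of an ATP-sensitive channel of vascular smooth muscle and pericytes, read 7.62, 7.17 and 7.31 in hSRY-OFF and 7.18, 8.03 and 7.08 in hSRY-ON. The groups overlapped and the change was 0.07 (limma, adjusted p = 0.871). Kcnj2, Kcnj3 and Kcnj4 changed by -0.11, 0.01 and 0.02 and each was detected on 2 hSRY-OFF arrays and 1 hSRY-ON array.

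Of the 12 tested probes of voltage-gated potassium alpha subunits, 3 were lower and 1 was higher (33.3%, against 26.9% of all tested probes). All 4 lay near background, and each was undetected on every array of a group, so that it was tested only because the other group detected it. For Kcnh1, of the ether-a-go-go family, the bound was 1.43-fold lower (limma on the fitted change, adjusted p = 0.0377). Kcnh3, of the same family as Kcnh1, was detected on the hSRY-ON arrays alone, at 5.77, 5.42 and 5.60. Its bound was 1.23-fold higher (limma on the fitted change, adjusted p = 0.0134). Both bounds hold only for background-corrected values. The call of Kcnh3, whose gene model overlaps Mcrs1 (3 tested probes between -0.20 and -0.02), was lost without hSRY-OFF replicate 2 (adjusted p = 0.0595). Kcnh1 lost its call without hSRY-OFF replicate 1 or 2 (adjusted p = 0.0962 and 0.10) and hSRY-ON replicate 2 or 3 (adjusted p = 0.104 and 0.0769). Kcna2 was at 0.99 and narrowly missed the threshold (limma, adjusted p = 0.0509), with hSRY-ON replicate 2 at 6.93 above the other hSRY-ON arrays at 5.68 and 6.07. The cardiac repolarisation gene Kcnh2 was detected on all arrays by both tested probes and changed by -0.05 on each (limma, adjusted p = 0.891 and 0.904).

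Among the accessory potassium channel subunits, Kcne1l fell and Kcnab1 and Kcnmb4 rose. Kcne1l, now also called Kcne5, encodes a small membrane protein that inhibits the channel formed by the Kcnq1 product, whose own probe was not detected. It read 6.75, 6.39 and 6.72 in hSRY-OFF and 4.77, 4.57 and 5.56 in hSRY-ON (ILMN_2765662), where it was detected on replicate 3 alone. Its log2 change was -1.66 ± 0.26 (standard error; limma, adjusted p = 0.00607). The call held under all 15 alternatives, but the size depended on the background, and without correction the change was -0.50. Kcnab1, a cytoplasmic beta subunit gene, rose by 0.66 on ILMN_2915671 (adjusted p = 0.0112) and by 0.57 on ILMN_1216469 (adjusted p = 0.0326). The first call was lost without hSRY-OFF replicate 1 or 2 (adjusted p = 0.0566 and 0.0553), and the second in every fit that left out an array except that without hSRY-ON replicate 1 (adjusted p = 0.0682 to 0.120). Kcnmb4, a beta subunit gene of the large-conductance calcium-activated channel, rose by 0.51 on ILMN_3028187 (adjusted p = 0.0311) and was at 0.52 on ILMN_3101339, which did not pass (adjusted p = 0.111). Its call was likewise lost in every fit that left out an array except that without hSRY-ON replicate 1 (adjusted p = 0.0555 to 0.110). Kcne2, a regulatory subunit gene with strong signal on all arrays, varied widely within both groups, from 11.07 to 11.80 in hSRY-OFF and from 10.83 to 12.10 in hSRY-ON, and changed by -0.14 (limma, adjusted p = 0.80). Kcnab2 was at 0.59 (adjusted p = 0.0667) and Kcnip3 at 0.78 (adjusted p = 0.262).

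Neither calcium- or sodium-activated alpha subunit gene that was tested passed. Kcnn4, which encodes an intermediate-conductance channel of airway epithelium and immune cells, was at 0.37 ± 0.27 (standard error; limma, adjusted p = 0.345), and Kcnu1 at 0.17 (adjusted p = 0.452).

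The regulator gene Kcnrg had the smallest p of all probes selected by the naming rule. Its product is a soluble protein related to the assembly domain of voltage-gated potassium channels. Probe ILMN_1214094 read 7.67, 7.48 and 7.5 in hSRY-OFF and 9.33, 9.05 and 9.22 in hSRY-ON, and ILMN_3163138 read 7.51, 7.29 and 7.08 against 8.89, 8.78 and 8.72. Both probes separated the groups by more than a log2 unit. Their rises were 1.65 ± 0.13 (standard error; limma, adjusted p = 0.000706) and 1.5 ± 0.14 (standard error; adjusted p = 0.00134), and both calls held in all 16 alternatives. In the RefSeq table the gene overlaps Trim13 and the noncoding Dleu2. The array's Trim13 probe was not detected on enough arrays to be tested (4.62 in hSRY-OFF and 4.66 in hSRY-ON). Trpc4ap, an adaptor of a ubiquitin ligase, was detected on all arrays by its 3 probes and changed by -0.08, 0.09 and 0.15 (limma, lowest adjusted p = 0.478).

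The TRPM and TRPV probes that passed were all higher, 6 of 7 tested, against 13.6% of all tested probes in this direction. These probes cover few genes. Of 8 TRPM genes only Trpm6 was tested, by 2 probes, and Trpv6 also gave 2. The calls of Trpv2 and Trpv4 were lost in several alternatives. Trpm6 encodes a magnesium-permeable channel fused to a kinase. Its probe ILMN_3138046 read 8.66, 8.76 and 8.87 in hSRY-OFF and 9.39, 9.56 and 9.47 in hSRY-ON, and ILMN_3060635 read 7.80, 7.81 and 8.04 against 8.70, 8.70 and 8.49. The groups were apart on both. The rises were 0.71 ± 0.12 (standard error; limma, adjusted p = 0.00717) and 0.75 ± 0.13 (standard error; adjusted p = 0.00807). Trpv6 encodes a highly calcium-selective channel of absorptive epithelia. It read 7.43, 7.72 and 7.74 in hSRY-OFF and 8.36, 8.26 and 8.32 in hSRY-ON on ILMN_2517665, a rise of 0.69 ± 0.13 (standard error; limma, adjusted p = 0.0107). On ILMN_3001186 it rose by 1.10 ± 0.20 (standard error; adjusted p = 0.00976). The calls of both genes held on both tested probes in all 16 alternatives. The remaining Trpm6 probe, ILMN_2447694, was detected on no array. Trpv5, the close relative of Trpv6, was detected on 2 arrays of each group and was at 0.03 (adjusted p = 0.943). The table holds no probe sequences, so that signal shared between related genes was not examined.

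Trpv2, a calcium-permeable channel gene expressed in macrophages among other cells, was nearly constant in hSRY-OFF, at 7.79, 7.78 and 7.74 (ILMN_2837779). It was spread in hSRY-ON, at 8.24, 9.69 and 8.76, with replicate 2 the highest. The rise of 1.13 ± 0.33 (standard error) was just past the threshold (limma, adjusted p = 0.0446) and was lost without hSRY-OFF replicate 1, 2 or 3 (adjusted p = 0.116, 0.119 and 0.112) and without hSRY-ON replicate 3 (adjusted p = 0.0715). Of 7 macrophage markers, all were tested and 5 were higher (Cd68, Marco, Cd14, Lyz2 and Mrc1). Emr1 (-0.26, 0.09 and 0.15 on its probes) and Csf1r (0.41 and 0.12) did not pass. The sums, to which Lyz2 gave by far the most, ranged from 24423 to 26506 in hSRY-OFF and from 34557 to 42245 in hSRY-ON. The sum was highest in hSRY-ON replicate 2, whereas Marco was highest in hSRY-ON replicate 1, at 8.70. The part of macrophages in the rise of Trpv2 was not tested. Trpv4, an osmotically and mechanically sensitive channel gene, was detected on 1 array of hSRY-OFF and all 3 of hSRY-ON and rose by 0.64 ± 0.19 (standard error; limma, adjusted p = 0.0446). Its call was lost in 10 of the 14 alternatives that tested it, among them every fit that left out an array except that without hSRY-ON replicate 1 (adjusted p = 0.0501 to 0.136). Of the other Trpv4 probes, ILMN_1239372 was detected on no array and ILMN_2466284 on 1 hSRY-ON array.

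The TRPC genes, whose channels are linked to phospholipase C signalling and calcium entry, showed 1 fall among 5 tested probes, where 13.3% of all tested probes fell. Trpc1 read 6.82, 7.0 and 6.71 in hSRY-OFF and 6.29, 6.10 and 6.47 in hSRY-ON (ILMN_1241563). All hSRY-ON values were lower, and the difference was -0.56 ± 0.14 (standard error; limma, adjusted p = 0.0293). The call was lost without hSRY-OFF replicate 1, 2 or 3 (adjusted p = 0.0942, 0.114 and 0.0565) and without hSRY-ON replicate 2 (adjusted p = 0.0741). Trpc6, which encodes a diacylglycerol-gated channel of pulmonary vessels, read 5.98, 6.30 and 6.89 in hSRY-OFF and 6.91, 6.24 and 6.24 in hSRY-ON and did not pass, with a change of 0.07 (limma, adjusted p = 0.871).

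None of the 3 tested CLC probes passed (limma; 0 also at an unadjusted p under 0.05). Clcn2, which encodes a chloride channel of the fetal lung epithelium, changed by -0.03 ± 0.13 (standard error; adjusted p = 0.876). The lysosomal and endosomal exchanger genes Clcn7 and Clcn3 changed by -0.26 (adjusted p = 0.332) and 0.33 (adjusted p = 0.124).

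The size of many changes depended on the background correction. Without it, all 32 changes kept their direction, their median absolute size was 0.44 in place of 0.88, and 21 of the 32 passed. The lost calls included those of Cacna1h, Kcnab1, Kcnh1, Kcnh3, Kcnmb4, Trpc1, Trpv4 and the dimmer Cacnb2 probe. The changes of Kcnk1 (1.55), Kcnj15 (1.02), Kcnrg (1.12 and 0.94) and Scn3b (-1.92, -1.55 and -1.47) stayed large. Of the 75 tested channel probes, 15 both passed and had fitted changes of 2-fold or more, where 1343 of all 13841 tested probes (9.7%) did. They were 6 higher and 9 lower probes, and 1 of them, Cacna1g, was undetected in hSRY-ON, where its bound was below 2-fold.

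**Figure D4:**
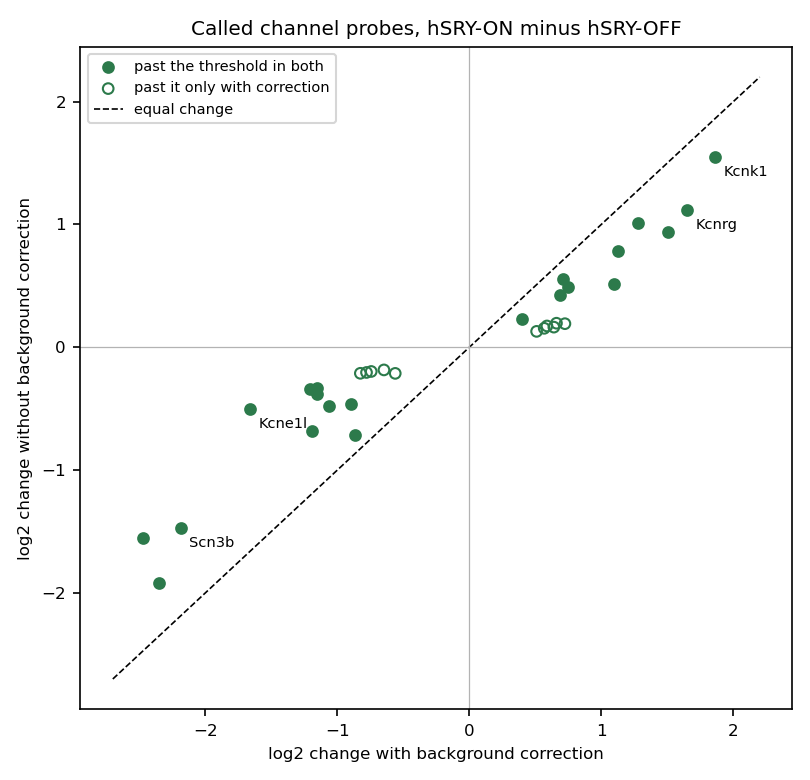
Log2 change, hSRY-ON minus hSRY-OFF, of the 32 channel probes that passed, with background correction (horizontal axis) and without it (vertical axis). Filled circles passed under both and open circles only with correction. The points keep their side of 0 and lie closer to 0 without correction, with Kcnk1 and Scn3b at the ends.

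Genes outside the naming rule that encode partners of these channels, or other channels and their regulators, were taken from a list of 43. Of these, 40 were on the array and 24 had a tested probe. Of these 24 genes, 6 were higher and 1 was lower. Of their 26 tested probes, 8 were higher and 1 was lower, where 13.6% and 13.3% of all tested probes were. The list was made with earlier results of these data known, so that nothing is drawn from its shares. Lrrc26, whose product lowers the voltage needed to open the large-conductance potassium channel, had the largest change. It read 7.95, 7.93 and 8.01 in hSRY-OFF and 10.23, 10.42 and 10.08 in hSRY-ON, a rise of 2.28 ± 0.13 (standard error; limma, adjusted p = 0.000478). The replicates of each group were close together and the groups far apart. The pore gene of that channel, Kcnma1, was not detected. Abcc9, the regulatory subunit gene of the ATP-sensitive channel whose pore is encoded by Kcnj8, rose by 0.99 on ILMN_3104271 (adjusted p = 0.00868), while the change of Kcnj8 was 0.07. The other Abcc9 probes were detected on no array. Tmem38b, a cation channel gene of the endoplasmic reticulum, rose by 1.24 and 0.88 on its probes (adjusted p = 0.00140 and 0.00334), and the inositol trisphosphate receptor gene Itpr1 by 0.69 (adjusted p = 0.00926). Hvcn1, the proton channel gene of phagocytes, rose by 1.35 and 0.91 (adjusted p = 0.0115 and 0.0212), and Ostm1, the partner of the Clcn7 exchanger, by 0.64 (adjusted p = 0.0171). Piezo2, named 9430028L06Rik on the array, encodes a stretch-activated channel of sensory nerves. It read 8.88, 9.01 and 8.77 in hSRY-OFF and 7.66, 7.87 and 8.08 in hSRY-ON and fell by 1.02 on the log2 scale (limma, adjusted p = 0.00445). The call of Ostm1 was lost without hSRY-OFF replicate 1 or 3 (adjusted p = 0.0762 and 0.0589), and that of the Hvcn1 probe at 0.91 without hSRY-OFF replicate 1, 2 or 3 (adjusted p = 0.0741, 0.0736 and 0.0618). The store-operated calcium entry genes Orai1, Orai3 and Stim1 were at 0.20, 0.37 and 0.25 and did not pass (limma, lowest adjusted p = 0.0675).

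Marker genes of the other cell types that can carry these channels were measured beside them. Of the 8 alveolar and airway markers, 3 were higher (Sftpb, Sftpd and the ciliated cell gene Foxj1) and none passed as lower. Sftpc and Cldn18 were at -0.25 and -0.29 with groups that did not overlap, and did not pass (limma, adjusted p = 0.15 and 0.139). The sums ranged from 104864 to 108162 and from 110032 to 120472. Foxj1 is also in the list of ciliated cell markers. Of 8 neuronal markers, 3 were tested and 1, Uchl1, was higher. Stmn2, the brightest of the 3, was at -0.45 with groups that did not overlap, and Tubb3 was at 0.26. Neither passed (limma, adjusted p = 0.0989 and 0.424). Snap25, Syt1, Nefl and Nefm were not detected, and the sum of the tested markers ranged from 1232 to 1495 in hSRY-OFF and from 1387 to 1580 in hSRY-ON. Of 6 Schwann cell markers, 3 were tested and 2 were higher, Mbp among them, with sums from 418 to 493 and from 732 to 948. Of 8 endothelial markers, 7 were tested and 4 were lower (Cdh5, Tie1, Cldn5 and Esam), with sums from 69266 to 73759 and from 54388 to 55684. Of 5 ciliated cell markers, 4 were tested and all 4 were higher, with sums from 1847 to 2060 and from 4952 to 6101. Of 6 skeletal muscle markers, 4 were tested and none passed (limma; 1, Ckm, had an unadjusted p under 0.05), with sums from 265 to 446 and from 245 to 336. Each pair of ranges gives hSRY-OFF first. The part of these cell types in the channel results was not tested.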

How the data were processed

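Biotinylated cRNA was made from total RNA of 6 lungs for Illumina arrays. The authors deposited an intensity (mean bead signal on a linear scale) for each probe and array, neither background-corrected nor normalized, and a detection p-value against the array's negative control probes. The median intensity per array was 177.1 to 204.0. The software that summarised the beads is not given in the sources used here. The submitters' processing notes name limma, and the study's methods name TCC, an R package for count data.

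Here limma 3.58.1 in R 4.3.3 was used. The normexp background step took its parameters from the detection p-values, 16 was added as an offset, and arrays were quantile-normalized and taken to log2, which removes any overall shift between groups and compresses dim signals. For the 13841 probes with detection p under 0.05 on 3 or more arrays, lmFit and eBayes compared the groups with no covariate, followed by Benjamini-Hochberg adjustment over these probes. The steps were tested on simulated data. No arrays held identical values. Samples were grouped by their titles. The number of arrays limits the precision.

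The genes described are those with a probe past the threshold, the brightest tested probe of each structural group, 14 fixed channel genes and the related genes past the threshold, except some that are counted but not reported by name here. Members and lists were chosen with earlier results of these data known. Replicate numbers are shared by both groups, but same-numbered arrays did not deviate together (correlations -0.11, 0.10 and -0.09), so that no pairing was used. Of the 145 symbols, 144 matched the RefSeq table as spelled and 1 through a synonym, and its coordinates were used only for promoter windows and overlaps. Alternatives were other background corrections, normalizations, filters, variance models, a replicate block and leaving out each array.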

Additional observations from a re-analysis of the deposited data

How the results depend on the processing

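The number of channel probes past the threshold, 32, stayed within 1.5 times this count under other background corrections, normalizations, variance models and filters, except that 21 passed (8 of them lower) where detection on all 6 arrays was required, with 46 probes tested. An adjusted p under 0.01 left 16 (7 higher and 9 lower), and 1326 of all probes, by construction fewer. Testing all 226 channel probes gave 31 calls. Leaving out arrays gave 18 to 35 channel calls (8 to 19 higher, 9 to 17 lower) and 1652 to 4442 calls over all probes. The counts were lowest without hSRY-OFF replicate 1 (19 channel probes and 1652 in all) or 2 (18 and 1748) and also low without hSRY-OFF replicate 3 (22 and 2235), and fewer arrays leave fewer degrees of freedom. The median change of the channel probes, 0.07, ranged from 0.03 to 0.16 without an array and from 0.02 to 0.11 under the other alternatives, and the related genes kept a count of 6 to 10 without an array. Of the 32 calls, 16 were called in every alternative at the 0.05 threshold that tested them, 17 whichever array was left out, and 0 changed direction.

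Samples with the same number share only that number. With the replicate block 26 channel probes passed (12 higher and 14 lower), 25 of them among the 32, and 2655 probes in all. The block ended calls that included Cacnb4, Cacna1h, Kcnmb4, Trpc1, Trpv2 and Trpv4. The array of hSRY-OFF replicate 3 deviated most like that of hSRY-ON replicate 1 (correlation 0.16), so that arrays were not always most like their own number.

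Among the probes recomputed one by one (those past the threshold, the brightest of each structural group, the fixed genes and the related genes past the threshold), those whose change took the other sign passed in no alternative. Kcne2 was at 0.051 with median scaling, at 0.0021 with array weights and between -0.55 and 0.082 when an array was left out. Trpc4ap (ILMN_1225522) was at 0.034 with median scaling, and Clcn2 at 0.0098 with cyclic loess. When an array was left out, Clcn2 ranged from -0.11 to 0.061, Kcnh2 (ILMN_3123864) from -0.24 to 0.14, Kcnj8 from -0.23 to 0.24 and Trpc6 from -0.15 to 0.32.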

Other observations

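Among the channel probes that were not tested, 28 were detected on 1 or 2 arrays, and for 5 of them the detections were on 2 arrays of a group and none of the other. Among these were Scn10a and Trpm4 in hSRY-OFF and Kcnk12 and Scn2b in hSRY-ON. With no fit, they are given as detections alone.

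Of 13 channel genes measured by several tested probes, 8 had every tested probe past the threshold in the same direction, 4 had none, and 1, Kcnmb4, had both kinds. Among the 43 tested channel probes that did not pass, 6 had groups that did not overlap (Kcna2, Kcnab2, Kcnk2, Cacna2d3, Clcn3 and a probe of Kcnmb4). The share of all tested probes without overlap, 46.6%, also counts the probes that passed, so that it is not a like share.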
